A study of Homo sapiens with 8 samples.

Results

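The aldo-keto reductases described here are 7 genes, AKR1A1, AKR1B1, AKR1B10, AKR1C1, AKR1C2, AKR1C3 and AKR7A2, out of 48162 genes listed in each library. They were chosen by gene symbol, and each symbol stood on 1 row of every file. All 7 had a mean above 1 FPKM (a read count divided by gene length and by the library's depth) and were tested together with the other genes that did, 14311 in all.

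The study raised or lowered NMR, a long noncoding RNA, in KYSE70 and KYSE450, human cell lines from esophageal squamous cell carcinoma at passages 5 to 10, and sequenced their RNA. Overexpression used a PCDNA3.1 plasmid, transfected with a lipid reagent. Knockdown used lentivirus collected from HEK 293T cells, and each manipulation had its own control in each line. The 8 libraries therefore form 4 groups of 2 (overexpression control, overexpression, knockdown control, knockdown), with 1 library per line in each group. The first pair of groups is called the plasmid arm below and the second the lentiviral arm. NMR is not listed under that name in the files, so its level was not analysed here. The labels do not say that libraries came from separate cultures, so the spread behind each p-value is that of these libraries alone and may be technical.

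Aldo-keto reductases are NADPH-dependent enzymes that reduce aldehydes and ketones to alcohols. The AKR1C enzymes act on steroids, prostaglandins and lipid aldehydes. AKR1B10 and AKR1B1 reduce retinal, sugars and reactive aldehydes, AKR1A1 is the general aldehyde reductase, and AKR7A2 reduces succinic semialdehyde and aflatoxin dialdehyde. In epithelial tumours of the aerodigestive tract AKR1B10 and the AKR1C genes are known as targets of NRF2, the transcription factor that is held down by KEAP1 and answers oxidative stress.

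The 3 AKR1C genes lie side by side on chromosome 10. AKR1C1 and AKR1C2 are near-identical copies, and AKR1C3 is a less close one. In the GENCODE release 29 transcripts the coding sequences of AKR1C1 and AKR1C2 differed at 19 of 969 positions, an identity of 98.0%. AKR1C3 differed from AKR1C1 at 83 positions and from AKR1C2 at 87. The stretch below, coding positions 103 to 162, is shown because it holds 10 of the 19 differences between AKR1C1 and AKR1C2. Capitals mark the 15 positions at which the 3 genes are not all alike.
AKR1C1: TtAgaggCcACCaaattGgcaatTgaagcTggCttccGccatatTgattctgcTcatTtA
AKR1C2: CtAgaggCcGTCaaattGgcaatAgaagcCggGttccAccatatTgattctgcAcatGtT
AKR1C3: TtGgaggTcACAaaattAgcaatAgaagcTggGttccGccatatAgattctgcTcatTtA
A part of the reads cannot be assigned to 1 copy. Of the 100-base windows of the AKR1C1 transcript, 6705 bases long, 17.2% also occur whole in the AKR1C2 transcript, and 0.288% occur in AKR1C3. The gene lengths implied by the deposited values were shorter, 2280 bases for AKR1C1 and 1232 for AKR1C2. The share of ambiguous reads among those counted may therefore be larger than these window shares, and the reverse share was not computed. The sources used here do not give how reads matching more than 1 copy were counted, so the division of reads among AKR1C1, AKR1C2 and, to a smaller degree, AKR1C3 is uncertain. AKR1B1 and AKR1B10 share 76.5% of their coding bases and no window of 50 bases.

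The sequence before the genes' starts is also shared within the cluster. RefSeq (GRCh38.p14) start-site windows matched 6 of the 7 members by symbol, 9 windows in all, and AKR1B10 had none. Each window is a short stretch directly before a start, such as chr10:4963165-4963414 for AKR1C1. The windows of AKR1C1 and AKR1C2 were identical at 245 of 246 aligned bases, whereas those of AKR1C3 were identical to them at 76.8% to 79.5%. The longest run common to all 4 AKR1C windows was 12 bases, and it is printed in capitals with its flanks. It occurs in 5 of 35116 windows (0.0142%), 4 of which are the windows it was picked from. That share therefore cannot show that the run is special to these genes.
AKR1C1, chr10:4963329-4963358, plus strand: tcacatgccATTGGTTAACCAgcagacagt
AKR1C2, chr10:5003918-5003947, minus strand: tcacatgccATTGGTTAACCAgcagacagt
AKR1C3, chr10:5048699-5048728, plus strand: ttacatgctATTGGTTAACCAttaggcagt
AKR1C3, chr10:5094319-5094348, plus strand: ctacatgccATTGGTTAACCAtcagtcagt
The core of the antioxidant response element to which NRF2 binds, TGACNNNGC, was searched on both strands. It occurred in 10.9% of all windows and, among the members, in both windows of AKR7A2 alone, with 3 matches in each. These 2 windows, chr1:19312147-19312396 and chr1:19312145-19312394, overlap almost wholly, so the 3 matches are the same sites. Their GC content is 78.8% and 79.2%. A more specific form of the same length, TGACTCAGC, occurred in 0.456% of all windows and in none of the 9. These matches describe the letters in the windows and say nothing of binding or of elements outside the windows.

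The genes lie on 3 chromosomes, by GENCODE release 29 on GRCh38, matched by gene identifier (the submitters' notes name hg19, and no hg19 position is given here). AKR1C1 (ENSG00000187134) spans chr10:4963253-4983283, AKR1C2 (ENSG00000151632) chr10:4987400-5018031 and AKR1C3 (ENSG00000196139) chr10:5035354-5107686. AKR1B1 (ENSG00000085662, chr7:134442350-134459284) and AKR1B10 (ENSG00000198074, chr7:134527592-134541408) are neighbours on chromosome 7. AKR1A1 (ENSG00000117448, chr1:45550543-45570049) and AKR7A2 (ENSG00000053371, chr1:19303965-19312146) are on chromosome 1. All 7 are annotated as protein coding.

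Whole reads recovered from the FPKM values numbered 26401805 to 37937856 per library, and a single read on 1 kb of gene equals 0.0263 to 0.0378 FPKM. The 7 squamous epithelium markers all reached 1 FPKM, and the 6 immune and 4 hepatocyte markers stayed below 1 FPKM in every library. Of 6 fibroblast markers, COL1A1, COL3A1 and LUM reached 1 FPKM, as did VWF of 3 endothelial markers listed. KRT17 averaged 0.597 FPKM in KYSE70 and 229.6 in KYSE450. The KYSE70 knockdown library stood apart in its mitochondrial share, 8.63% of FPKM against 3.84% to 5.75% in the other 7 libraries. A difference in level between bulk samples cannot be told apart from a difference in the share of cells that hold the RNA.

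Levels depended on the line first. In KYSE70 the 7 genes took 0.828% to 1.14% of all FPKM, and in KYSE450 0.0579% to 0.115%. Libraries are given below in the order overexpression control, overexpression, knockdown control, knockdown. Fold values are ratios of mean FPKM over the 4 libraries of a line, and log2 changes, with their standard errors (SE), are on log2(FPKM + 1) and come from limma with Benjamini-Hochberg adjustment over all genes tested.

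**Figure D1:**
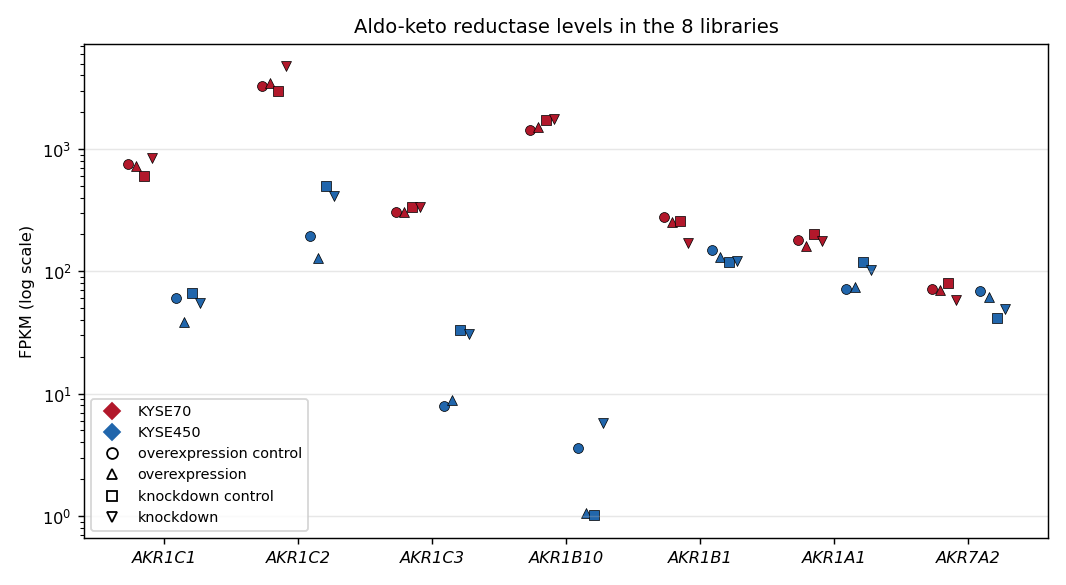
FPKM on a log axis for each of the 7 genes, with 1 point per library; colour gives the line (n = 4 libraries each) and shape the group. For AKR1C1, AKR1C2, AKR1C3 and AKR1B10 the KYSE70 libraries lie far above those of KYSE450, and for AKR7A2 the lines overlap.

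AKR1C2, the 3-alpha-hydroxysteroid dehydrogenase that inactivates dihydrotestosterone, was the most abundant member in KYSE70, at 3279, 3459.8, 2984 and 4733 FPKM. In KYSE450 it stood at 196, 128, 498 and 416 FPKM. The highest KYSE450 library lay below the lowest KYSE70 library, and the mean was 11.7-fold higher in KYSE70 (log2 change 3.72, SE 0.40, adjusted p = 4.3e-05). Within the plasmid arm alone the log2 change was 4.401 and within the lentiviral arm alone 3.04.

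AKR1C1, the 20-alpha-hydroxysteroid dehydrogenase that inactivates progesterone, was at 758, 721, 596 and 846 FPKM in KYSE70. In KYSE450 it was at 60.5, 38.2, 66.2 and 55.3 FPKM. Here too the lines did not overlap (13.3-fold by the means, log2 change 3.72, SE 0.19, adjusted p = 2.54e-07), and the KYSE450 values stayed within a narrower band than those of AKR1C2. The log2 change was 3.92 in the plasmid arm and 3.53 in the lentiviral arm.

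AKR1C3 makes testosterone from androstenedione and prostaglandin F from prostaglandins H and D. In KYSE70 it was at 303 and 303 FPKM with plasmid and 337 and 337 with lentivirus. In KYSE450 the arms lay further apart, at 7.90 and 8.92 FPKM with plasmid and 33.4 and 30.5 with lentivirus. KYSE70 was higher in all 4 groups, 15.8-fold by the means (log2 change 4.19, SE 0.43, adjusted p = 3.15e-05). The size of the difference between the lines rested on the arm: the log2 change was 5.02 in the plasmid arm and 3.36 in the lentiviral arm.

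AKR1B10, the retinal and lipid aldehyde reductase, was close to 0 in KYSE450. KYSE70 held 1423, 1523, 1727 and 1744 FPKM, and KYSE450 held 3.58, 1.06, 1.01 and 5.72. Its mean was 565-fold higher in KYSE70, and its log2 change of 8.90 (SE 0.36, adjusted p = 6.09e-08) was exceeded in that direction by 1 of the 14311 genes. The size depends on how the low KYSE450 level is treated: the log2 change was 9.45 with a pseudocount of 0.1, 9.55 with voom on the recovered reads and 10.64 with the trace of KYSE70 described below subtracted. That subtraction set AKR1B10 to 0 in every KYSE450 library. The change was 8.91 in the plasmid arm and 8.89 in the lentiviral arm.

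AKR1B1, the aldose reductase that turns glucose into sorbitol, was at 276, 252, 260.2 and 169.7 FPKM in KYSE70. In KYSE450 it was at 149, 131, 118 and 121 FPKM. The difference was small beside those above but free of overlap (1.85-fold, log2 change 0.86, SE 0.17, adjusted p = 0.00223).

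AKR1A1, the aldehyde reductase that also serves glucuronate reduction, was at 181, 162, 202 and 178 FPKM in KYSE70. In KYSE450 it was at 71.5, 74.3, 118 and 103 FPKM. KYSE70 was 1.97-fold higher, with no overlap (log2 change 0.997, SE 0.18, adjusted p = 0.00121).

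AKR7A2 did not pass the test between the lines. It stood at 71.1, 70.1, 80.2 and 58.1 FPKM in KYSE70 and at 68.7, 62.0, 41.9 and 49.3 in KYSE450, and the 2 ranges overlapped. The log2 change was 0.34 (SE 0.18, adjusted p = 0.13), and it was 0.43 (adjusted p = 0.0428) once dependence on GC content and length was taken out.

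Thus 6 members were higher in KYSE70 and none was lower, also without any 1 of the 8 libraries. That count has to be read against a background in which 50.3% of all genes tested were called between the lines, 24.7% of all genes being higher in KYSE70 and 25.6% lower. Of all genes 48.6% did not overlap between the lines, 24.1% being higher in KYSE70. The size sets 4 members further out: AKR1B10, AKR1C1, AKR1C2 and AKR1C3 were more than 10-fold higher by the means, as were 2.53% of the genes tested. The median log2 change over all genes was -0.02.

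By mean FPKM the order in KYSE70 was AKR1C2 (3614), AKR1B10 (1604), AKR1C1 (730.3), AKR1C3 (319.8), AKR1B1 (239.6), AKR1A1 (181) and AKR7A2 (69.9). Neighbours in that order did not overlap across the 4 libraries except AKR1B1 and AKR1A1. In KYSE450 the order was AKR1C2 (309.6), AKR1B1 (129.7), AKR1A1 (91.8), AKR7A2 (55.5), AKR1C1 (55.0), AKR1C3 (20.2) and AKR1B10 (2.84). There AKR1C2 overlapped AKR1B1, AKR1B1 overlapped AKR1A1, and AKR7A2 overlapped AKR1C1, so these neighbours are not ordered beyond their spread. AKR1B10 moved from the second place in KYSE70 to the last in KYSE450.

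The ratio of AKR1C2 to AKR1C1, both per length, was higher in the lentiviral than in the plasmid arm of each line. It was 4.33, 4.80, 5.00 and 5.60 in KYSE70. In KYSE450 it was 3.24 and 3.35 with plasmid and 7.53 and 7.52 with lentivirus, so that the arms did not overlap in either line. The KYSE70 ratios lay within the KYSE450 range, so the lines were not set apart. Absence of overlap between 2 and 2 libraries is common, at 67.5% of the genes tested between the KYSE450 arms. These ratios carry the uncertainty over shared reads between the 2 copies.

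AKR1B10 in KYSE450 was set against a trace of the other line. Other genes with a mean of at least 50 FPKM in KYSE70 and at most 1% of it in KYSE450 numbered 13. Their median share in KYSE450, relative to KYSE70 in the same group, was 0.328%, 0.151%, 0.21% and 0.357% in the 4 groups. AKR1B10 stood at 0.251%, 0.0693%, 0.0584% and 0.328%, below that median in each group and high in the same 2 groups, overexpression control and knockdown. Recovered reads of AKR1B10 in KYSE450 numbered 91, 29, 36 and 157.

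The same 2 groups were highest in the opposite direction: for 34 genes of KYSE450 the median share in KYSE70 was 0.292%, 0.141%, 0.245% and 0.364%. The 13 genes were picked for a share of at most 1%, which caps the median. After the median share was subtracted AKR1B10 was at 0 FPKM in all 4 KYSE450 libraries. That follows from its shares lying below the median, so the subtraction adds nothing to them. It cannot tell a trace from a low level of AKR1B10 in KYSE450 itself. AKR1C3, the next lowest member, kept 6.90, 8.46, 32.7 and 29.3 FPKM after the same subtraction. No cause of the shared trace was tested.

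**Figure D2:**
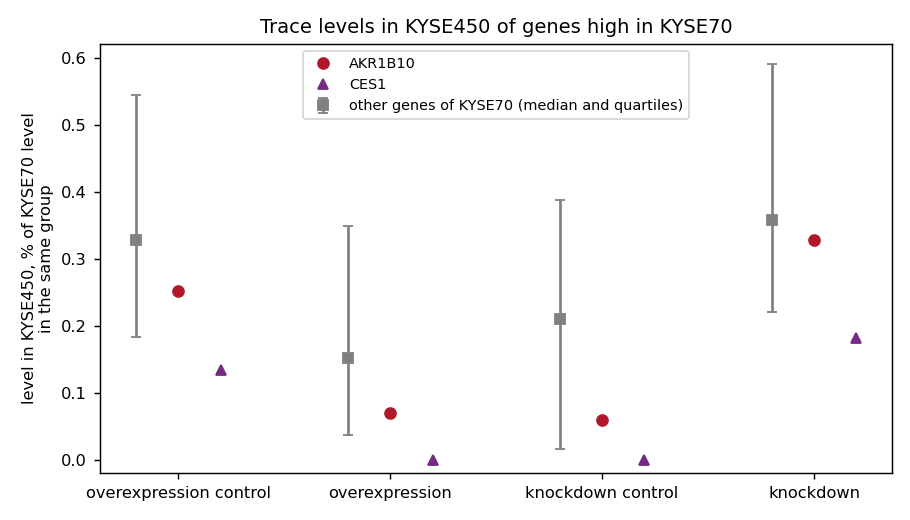
Level in KYSE450 as a percent of the KYSE70 level in the same group (linear axis), for AKR1B10, for CES1 and for the 13 non-member genes high in KYSE70. The 13 genes include CES1 (grey squares, median with quartiles as bars). AKR1B10 lies below the median of the 13 genes in each of the 4 groups and is highest, at 0.328%, in the knockdown group.

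The arms were then compared within each line. Their delivery, plasmid transfection or lentiviral infection, came with whatever else differed between the 2 experiments, and these cannot be told apart. Control and treated library of an arm served as its 2 libraries, so the spread includes any effect of NMR. The spread was estimated over both lines together, so a gene has the same SE in KYSE70 and KYSE450.

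In KYSE450, AKR1C3, AKR1C2 and AKR1A1 were higher in the lentiviral arm. AKR1C3 averaged 8.41 ± 0.722 FPKM (SD, n = 2) with plasmid and 31.96 ± 2.07 (SD, n = 2) with lentivirus, a 3.80-fold ratio. Its log2 change of 1.81 (SE 0.12, limma adjusted p = 0.000315) was called in all 16 alternative settings and left-out libraries as well. AKR1C2 averaged 162 ± 48.2 and 457 ± 58.0 FPKM (SD, n = 2 each), 2.82-fold, with a log2 change of 1.52 (SE 0.27, limma adjusted p = 0.0118).

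AKR1A1 averaged 72.9 ± 1.94 and 111 ± 11.04 FPKM (SD, n = 2 each), 1.52-fold, with a log2 change of 0.59 (SE 0.14, limma adjusted p = 0.0293). The calls of AKR1C2 and AKR1A1 were less firm than that of AKR1C3. AKR1C2 lost its call without the KYSE450 overexpression library (adjusted p = 0.104) or the KYSE450 knockdown control (0.109), with the controls alone compared (0.0735) and with no filter on low genes (0.0547). AKR1A1 lost its call without any 1 of the 4 KYSE450 libraries (adjusted p 0.0518 to 0.175), without either KYSE70 library of the plasmid arm (both 0.0718), with the controls alone compared (0.068) and with no filter (0.0609).

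The other 4 members were not called in KYSE450. AKR7A2 averaged 65.4 FPKM with plasmid and 45.6 with lentivirus, with no overlap (log2 change -0.51, SE 0.17, adjusted p = 0.0876). It was called without either KYSE70 library of the lentiviral arm (adjusted p = 0.0101 in both cases) and with GC and length trends removed (0.0207). The log2 change was 0.33 for AKR1C1 (SE 0.24), -0.22 for AKR1B1 (SE 0.20) and, within its trace, 0.26 for AKR1B10 (SE 0.53). The background in this comparison was 14.2% of genes called, 7.71% of all genes being higher with lentivirus, and 67.5% of genes without overlap, so that absence of overlap between 2 and 2 libraries is common.

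In KYSE70 no member was called between the arms, where 21.5% of all genes were. The 7 log2 changes ran from -0.33 for AKR1B1 (SE 0.20, adjusted p = 0.261) to 0.24 for AKR1B10 (SE 0.53). The value was 0.15 for AKR1C3 (SE 0.12) and 0.16 for AKR1C2 (SE 0.27), beside a median of 0.13 over all genes. The SE of AKR1B10 is shared with KYSE450, where its level was within the trace. In KYSE70 AKR1B10 was at 1423 and 1523 FPKM with plasmid and 1727 and 1744 with lentivirus, so the arms did not overlap. Arms did not overlap for AKR1C3 either, at 303 and 303 FPKM against 337 and 337. Such absence of overlap was common, at 67.5% of genes between the KYSE450 arms. AKR1B1 was called without the KYSE70 knockdown control (log2 change -0.63, adjusted p = 0.00378), where only the knockdown library stood for the arm and 6903 genes were called.

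The difference of the arm effect between the lines was tested as an interaction. For AKR1C3 it was -1.66 (KYSE70 minus KYSE450, SE 0.18, adjusted p = 0.00549), against 6.88% of all genes called, and it missed the threshold only without the KYSE70 overexpression control (adjusted p = 0.0515) among the alternatives run. For AKR1C2 it was -1.36 (SE 0.39, adjusted p = 0.0733). It was called without the KYSE70 knockdown control (-1.03, adjusted p = 0.0321), without the KYSE70 knockdown library (-1.69, 0.0154) and with GC and length trends removed (-1.48, 0.0333). AKR1A1 (-0.44, adjusted p = 0.192) and AKR7A2 (0.47, adjusted p = 0.258) were each called in 1 setting, AKR1A1 without the KYSE70 knockdown control (-0.53, adjusted p = 0.0373) and AKR7A2 without the KYSE70 knockdown library (0.70, adjusted p = 0.0342). AKR1C1 (-0.38), AKR1B1 (-0.10) and AKR1B10 (-0.02) were not called.

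**Figure D3:**
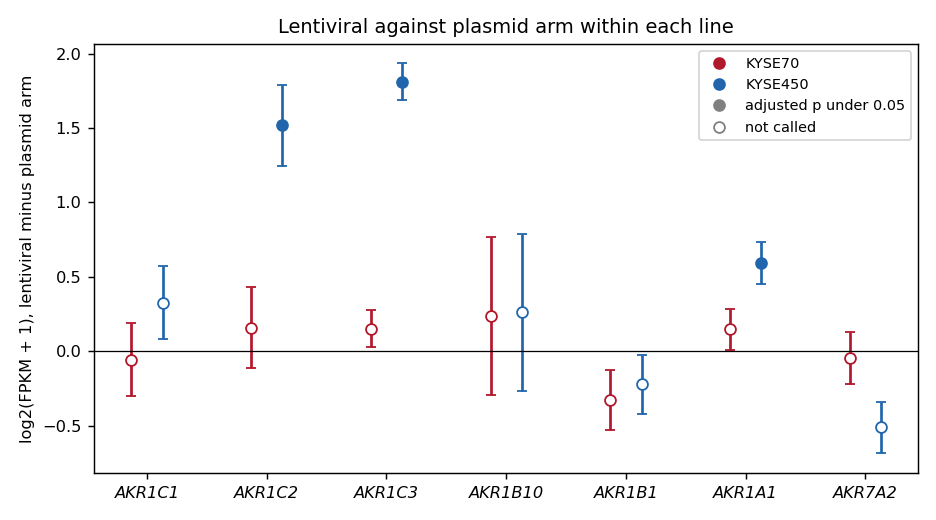
Lentiviral minus plasmid arm on log2(FPKM + 1) within each line; points are limma estimates from 2 libraries per arm, bars are 1 SE estimated over both lines together, and filled points passed an adjusted p of 0.05. AKR1C3 (1.81), AKR1C2 (1.52) and AKR1A1 (0.59) are filled in KYSE450, and no point is filled in KYSE70.

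NMR overexpression was compared with its own control in each line. No gene of the 14311 was called by limma, nor by voom on the recovered reads, with 148 and 150 genes at an unadjusted p under 0.05. The 7 members' changes over both lines ran from -0.53 (AKR1B10, SE 0.43) to 0.08 (AKR1C3, SE 0.14), all with an adjusted p of 0.9998.

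The 2 lines are given separately, as 1 pair of libraries each with no replicate. In KYSE450 AKR1C1 was at 60.5 FPKM in the control and 38.2 with overexpression and AKR1C2 at 196 and 128, log2 differences of -0.65 and -0.61 at the 0.37 and 0.433 percentile of all genes in that pair. In KYSE70 the same genes differed by -0.07 and 0.08. AKR1B10 differed by -1.15 in KYSE450, between 3.58 and 1.06 FPKM. Once the trace of the other line was subtracted, AKR1B10 differed by 0.05 over both lines. Every KYSE450 value was then 0, so that difference rests on the KYSE70 pair alone. AKR1C1, AKR1B1 and AKR7A2 were lower in both lines, as were 27.6% of all genes, and AKR1C3 was higher in both, as were 23% of all genes.

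Knockdown against its control gave no call by limma, 4 by voom on the recovered reads and 3 with a pseudocount of 0.1, with 1794 genes at an unadjusted limma p under 0.05. No member was called in those 3 analyses. AKR1B10 had the largest change among the members, 0.88 (SE 0.43, adjusted p = 0.429), and it came from KYSE450, where the control was at 1.01 FPKM and the knockdown at 5.72, within the trace described above. With voom the change was 0.52 (adjusted p = 0.635). Subtraction of that trace set AKR1B10 to 0 in every KYSE450 library. The change of 0.0073 after subtraction therefore rests on the KYSE70 pair alone and says nothing of KYSE450. The other 6 changes ran from -0.29 (AKR1B1, SE 0.18) to 0.20 (AKR1C2, SE 0.28).

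Between lines the knockdown pairs differed in sign for 4 members. In KYSE70, AKR1C2 was at 2984 FPKM in the control and 4733 with knockdown (0.67), and AKR1C1 at 596 and 846 (0.50). In KYSE450, AKR1C2 was at 498 and 416 FPKM (-0.26) and AKR1C1 at 66.2 and 55.3 (-0.25). AKR1B1 and AKR7A2 had the opposite pattern, -0.61 and -0.46 in KYSE70 against 0.03 and 0.23 in KYSE450.

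Only AKR1A1 and AKR1C3 were lower in both lines, as were 25.9% of all genes, and the AKR1C3 difference in KYSE70 was -0.00057. With 1 library per line and group, the difference between the lines could not be tested. Leaving out the KYSE450 knockdown library or its control left the KYSE70 pair alone, so these 2 fits are the same comparison of 1 library with 1. Their changes are those of that pair, -0.61 for AKR1B1, -0.46 for AKR7A2, 0.67 for AKR1C2 and 0.50 for AKR1C1. Leaving out either KYSE70 library left the KYSE450 pair alone, with a change of 1.74 for AKR1B10. That pair was at 1.01 and 5.72 FPKM, both 0 after subtraction of the trace. In such fits the single pair is assumed to vary like the other pairs, so no call is read from them.

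These KYSE70 values come from the library with the raised mitochondrial share. NFE2L2, which encodes NRF2, was at 238 FPKM in it and at 98.5 to 108 in the other 3 KYSE70 libraries. Targets of NRF2 went both ways in this library. GCLC was at 314 FPKM in the KYSE70 knockdown control and 665 with knockdown, and FTL at 1649 and 3144. TXNRD1 was at 524 and 418 FPKM, and HMOX1 at 63.7 and 28.6. The part of the mitochondrial share or of NFE2L2 in the values of AKR1C1, AKR1C2, AKR1B1 and AKR7A2 was not tested.

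**Figure D4:**
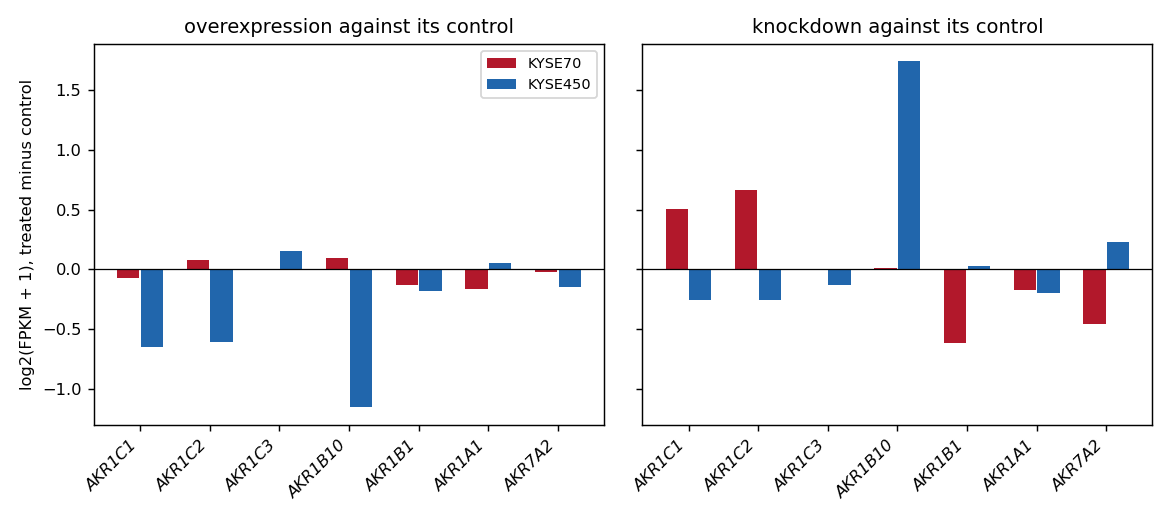
Treated minus control on log2(FPKM + 1) for overexpression (left) and knockdown (right); each bar is 1 pair of libraries in 1 line, with no replicate and hence no error bar. In the right panel AKR1C1 and AKR1C2 stand above 0 in KYSE70 (0.50 and 0.67) and below it in KYSE450 (-0.25 and -0.26).

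Other members of the family were taken from a list of 15, of which 7 reached the filter. Between the lines 5 of the 7 were higher in KYSE70 and none was lower, beside 24.7% and 25.6% of all genes. The median log2 change was 1.72, against -0.02 over all genes. Of these 5, AKR1E2, AKR1C4, AKR1C7P and AKR1CL1 averaged under 1 FPKM in KYSE450 and so passed the filter only through KYSE70. Their direction was thus fixed by the filter. Neither the count nor the median is therefore read as a result about the family. AKR1E2, a reductase of sugar derivatives, averaged 15.3 FPKM in KYSE70 and 0.029 in KYSE450 (log2 change 3.98, SE 0.14). AKR1C4, the liver form of the AKR1C enzymes, averaged 4.83 and 0.133 FPKM, and the pseudogene AKR1C7P 15.9 and 0.915. AKR1B15, the copy next to AKR1B10, averaged 1.05 FPKM in KYSE70 and was listed at 0 in 3 of the 4 KYSE450 libraries. KCNAB2, a potassium channel beta subunit of the same fold, was higher in the lentiviral arm in both lines (1.33 in KYSE450, 0.54 in KYSE70). Reads of AKR1C4, AKR1C7P and AKR1B15 may be shared with the abundant members.

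Of 10 NRF2 regulators 4 were higher in KYSE70 and none was lower, beside 24.7% and 25.6% of all genes. Of the 10 values 9 were above 0, and the median log2 change was 0.62. The 4 were SQSTM1 (1.86, SE 0.15), the adaptor that binds KEAP1, the competitor BACH1 (0.83, SE 0.16) and the partners MAFG (0.58, SE 0.17) and MAFK (0.65, SE 0.25). NFE2L2 itself stood at 0.14 (SE 0.27, adjusted p = 0.681) and KEAP1 at 0.83 (SE 0.36, adjusted p = 0.0825). Between the arms in KYSE450, 4 regulators were higher with lentivirus and 1 was lower, beside 7.71% of all genes higher and 14.2% called. MAFF (2.10, SE 0.30), NFE2L1 (1.40, SE 0.30), MAFK (0.92, SE 0.16) and MAFG (0.54, SE 0.13) were higher. In KYSE70, where 21.5% of all genes were called, none was higher and 2 were lower, SQSTM1 (-0.45, SE 0.12) and KEAP1. KEAP1 was lower in the lentiviral arm in both lines, by -1.22 in KYSE70 and -0.77 in KYSE450 (adjusted p = 0.00857 and 0.0441).

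Of 27 other NRF2 targets, all tested, 23 were higher in KYSE70 and 2 lower, beside 24.7% and 25.6% of all genes. Their median log2 change was 1.56. Those with the smallest p were the exporter ABCC2 (4.26, SE 0.15), the ferritin light chain FTL (3.31, SE 0.20), glutathione reductase GSR (1.91, SE 0.14) and the exporter ABCC3 (3.46, SE 0.26). The 2 lower targets were UGDH (-2.11, SE 0.16) and TKT (-0.53, SE 0.14). In the KYSE450 arm comparison, where AKR1C2 and AKR1C3 were higher with lentivirus, 2 of the 27 targets were higher and 3 lower, beside 7.71% of all genes higher and 14.2% called. The cystine transporter SLC7A11 was higher (1.57, SE 0.18), and the quinone reductase NQO1 (-1.32, SE 0.17), the epoxide hydrolase EPHX1 (-1.02, SE 0.20) and PGD of the pentose phosphate route (-0.64, SE 0.18) were lower.

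Enzymes beside the members in their pathways went both ways between the lines. Of 14 other carbonyl enzymes 7 were higher in KYSE70 and 7 lower, beside 24.7% and 25.6% of all genes. ALDH1A1, which oxidises retinal where AKR1B10 reduces it, averaged 401 FPKM in KYSE70 and 2.39 in KYSE450. The carbonyl reductase CBR1 had the reverse pattern, 0.367 and 94.5 FPKM, as did the aldehyde dehydrogenases ALDH7A1 (0.135 and 89.4) and ALDH2 (0.493 and 20.9). KYSE70 was therefore the higher line for the members named above and the lower line for CBR1, which shares substrates with them. CBR1 does not stand for the other carbonyl reductases listed as CBR. CBR3 (log2 change 0.76, SE 0.26) and CBR4 (1.19, SE 0.22) were higher in KYSE70.

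The counts of the next 3 lists stand beside 50.3% of all genes called, 24.7% higher in KYSE70 and 25.6% lower. Of 8 tested genes of the polyol and glucuronate routes, which AKR1B1 and AKR1A1 feed, 4 were lower in KYSE70 and none higher. The largest of these was UGDH, which makes UDP-glucuronate (log2 change -2.11, SE 0.16) and was also counted among the NRF2 targets. DCXR, ALDH1A1 and ALDH1A3 likewise stand in 2 of the lists. Of 12 steroid enzymes 2 were higher in KYSE70 and 4 lower, so the share called was close to that of all genes. The lower ones included HSD17B1 (-1.99, SE 0.14), the estrogen-forming dehydrogenase. Of 11 retinoid enzymes 3 were higher and 5 lower, including DHRS3, a retinal reductase (-1.84, SE 0.17).

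Of 8 tested prostaglandin enzymes, beside which AKR1C3 works, 2 were higher and 1 lower with lentivirus in each line. The medians were 0.09 in KYSE450 and 0.10 in KYSE70, and 14.2% and 21.5% of all genes were called. PTGS2, the inducible cyclooxygenase, was at 0.766 to 0.893 FPKM in the 4 plasmid libraries and at 9.34 to 20.6 in the 4 lentiviral ones. Its log2 change was 3.07 (SE 0.32) in KYSE450 and 2.76 (SE 0.32) in KYSE70. HPGD, which degrades prostaglandins, was at 96.3 and 136 FPKM with plasmid and 11.8 and 26.9 with lentivirus in KYSE450, a log2 change of -2.61 (SE 0.34). In KYSE70 HPGD was at most 0.292 FPKM.

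**Figure D5:**
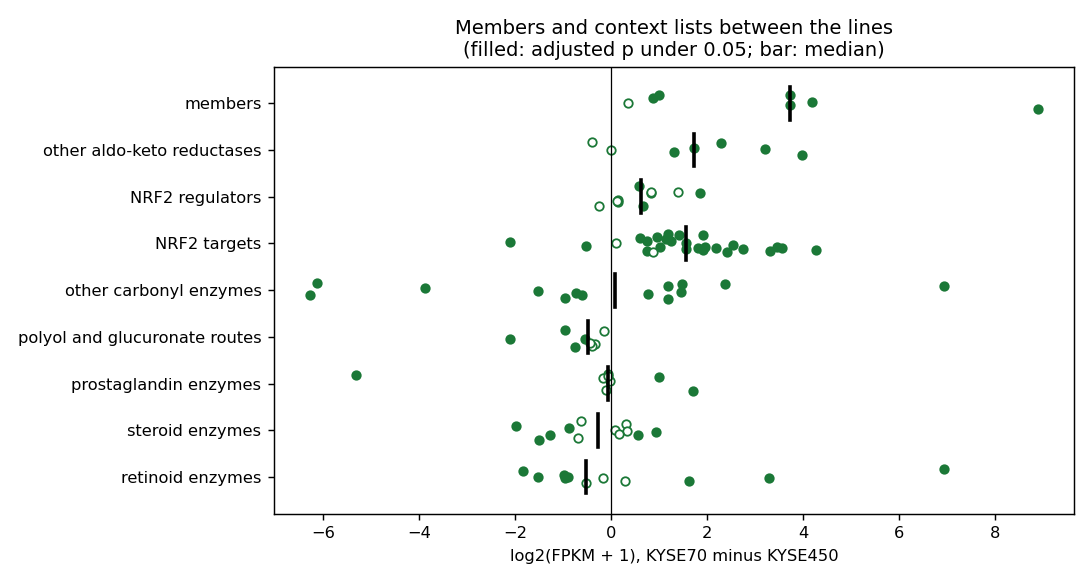
Log2(FPKM + 1) in KYSE70 minus KYSE450 for the 7 members and 8 lists of related genes; each point is a gene, filled at an adjusted p under 0.05, and the black bar is the median. The members' median is 3.72, that of the NRF2 targets 1.56 and that of the polyol and glucuronate routes -0.49.

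The genes most like each member over the 8 libraries were found by Pearson's r of log2(FPKM + 1) among 10377 genes. Libraries of 1 line share most of their profile, so these values chiefly reflect the lines and are given as a description. AKR1B10 was most like CES1, a carboxylesterase (r = 0.9998), and UCHL1, a deubiquitinase (0.997). AKR1C1 was most like MND1 (0.999), AKR1C2 like PLAA (0.997) and AKR1C3 like PUS3 (0.998). AKR1A1 was most like RAP2C (0.995), AKR1B1 like E2F1 (0.993) and AKR7A2 like AES (0.982).

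With each line's mean subtracted, AKR1B10 was again most like CES1 (r = 0.987), whose KYSE450 share was 0.134%, 0%, 0% and 0.181% in the 4 groups, the same order of high and low as AKR1B10. AKR1C3 was then most like LCN2, an iron-binding secreted protein (0.998), and the metalloreductases STEAP2 and STEAP1 (both 0.996). AKR1C2 was most like CLNS1A (0.995), AKR1A1 like BCL3 (0.990), AKR1B1 like SDR39U1 (0.999), AKR1C1 like TDP1 (0.987) and AKR7A2 like PCBD1 (0.980). Between members, within lines, the closest were AKR1A1 and AKR1C3 (0.938) and AKR1C2 and AKR1C3 (0.903), while the most opposed were AKR1C2 and AKR7A2 (-0.869), AKR1C3 and AKR7A2 (-0.826) and AKR1A1 and AKR7A2 (-0.712).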

How the data were processed

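Each of the authors' deposited files holds a gene's identifier, symbol and value for 1 library. No header or label names the unit. The deposited values behave as FPKM: within each of 30872 genes they were whole multiples of 1 step, within 0.02, after 1 factor per library, and 99.3% of the gene lengths this implies were whole. Per the submitters' processing notes, TopHat2 2.0.9, HTSeq 0.6.1 and hg19 were used, with no roles given; annotation, filters, strand and whether reads or fragments were counted: not given in the sources used here. Recovered reads came to 99.8% of the total implied for each library and cover counting error only.

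Genes averaging 1 FPKM or more were fitted as log2(FPKM + 1) with limma 3.58.1 (trend) in R 4.3.3, threshold 0.05. The lines were tested over all 8 libraries (6 residual degrees of freedom), the treatments with a term for each of 4 pairs of treated library and control (2), and the arms with a mean for each of the 4 combinations of line and arm (4). Titles gave the groups. Replicate numbers stand for the cell line and so pair the libraries: correlations over genes were 0.949 to 0.996 within a line and 0.797 to 0.847 between lines. The fits were checked on simulated data. Sequence comparisons used Biopython 1.88. The members, lists and named-gene rule (the 7 members; per list up to 4 called genes by p, else by level; the 3 genes most like each member) were chosen with earlier results of these data known. A few genes beyond the rule are named for their role after their values were seen. They are NFE2L2, KEAP1, AKR1B15, AKR1C4, CBR3, CBR4, HPGD in KYSE70, and GCLC, FTL, TXNRD1 and HMOX1 in the KYSE70 knockdown pair. Alternatives changed the pseudocount, filter, scaling, block and libraries, removed GC and length trends, subtracted the trace and used voom on recovered reads.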

Additional observations from a re-analysis of the deposited data

Results flagged for a closer look

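The change of AKR1C3 between the arms differed between the lines. The lentiviral minus plasmid difference on log2(FPKM + 1) was 0.15 (SE 0.12) in KYSE70 and 1.81 (SE 0.12) in KYSE450, and the interaction term between line and arm was -1.66 (SE 0.18, limma adjusted p = 0.00549). In KYSE70 the 4 libraries lay between 303 and 337 FPKM. In KYSE450 the plasmid pair was at 7.90 and 8.92 FPKM and the lentiviral pair at 33.4 and 30.5.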

How the results depend on the processing

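Between the lines, 125 of 126 member values under the alternatives kept their direction and side of the threshold, and 5204 to 10323 genes were called against 7195. The replicate block changed no call: without it 0 genes were called for overexpression and 0 for knockdown. Overexpression gave 12 calls with the plasmid arm alone and 0 to 12 with 1 library left out. Knockdown gave 3 calls with a pseudocount of 0.1, 4 with voom, 37 with the lentiviral arm alone and 36 to 4833 with 1 library left out. Between arms in KYSE70, 3077 calls became 1876 with no filter, 913 with controls compared and 299 to 6903 with 1 library left out. In KYSE450, 2039 became 1329, 1046 and 311 to 4595. For the interaction, 984 became 118 with no filter, 515 at a mean FPKM of 5, 1488 without GC and length trends and 36 to 5244 with 1 library left out. The split of higher to lower calls between arms in KYSE70, 2373 to 704, was 1563 to 1358 with median-ratio scaling and 1788 to 1975 without GC and length trends; that of the interaction, 755 to 229, was 566 to 341 and 775 to 713.

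These member values changed sign. With trends removed, knockdown gave 0.0046 for AKR1A1, -0.016 for AKR1C1 and 0.11 for AKR7A2, and the KYSE70 arms gave -0.046 for AKR1C2. With controls compared, AKR1B10 was -0.47 and AKR1C2 -0.077 in KYSE70, and AKR1B10 was -0.44 in KYSE450. With the trace subtracted, AKR1B10 was 0.049 for overexpression and 0.24 for the interaction, which was 0.020 with voom and 0.017 without trends. The trace-subtracted values rest on KYSE70 alone, because AKR1B10 was then 0 in every KYSE450 library. With 1 library left out, overexpression ran from -0.16 to 0.053 (AKR1A1), -1.15 to 0.10 (AKR1B10) and -0.61 to 0.077 (AKR1C2). Knockdown ran from -0.61 to 0.028 (AKR1B1), -0.25 to 0.50 (AKR1C1), -0.26 to 0.67 (AKR1C2) and -0.46 to 0.23 (AKR7A2). The KYSE70 arms ran from -0.31 to 0.19 (AKR1C1), -0.17 to 0.49 (AKR1C2) and -0.28 to 0.18 (AKR7A2), the KYSE450 arms from -0.61 to 1.13 (AKR1B10), and the interaction from -0.41 to 0.20 (AKR1B1) and -0.89 to 0.85 (AKR1B10). The cause was not tested, beyond the fewer libraries or genes in those fits.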
